A study of Mus musculus with 17 samples.

Results

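The Ms4a genes encode small proteins that pass through the plasma membrane several times. The family includes CD20 of B cells (Ms4a1) and the beta chain of the high-affinity IgE receptor of mast cells (Ms4a2). Ms4a4a marks tissue macrophages in mouse and human and lies with the beta-glucan receptor Dectin-1 in the membrane, and Ms4a7 is a marker of tissue macrophages. Mice have several close Ms4a4 and Ms4a6 copies next to each other on chromosome 19, and little is known of most of them. The 6 genes described here, Ms4a4a, Ms4a4c, Ms4a6b, Ms4a6c, Ms4a6d and Ms4a7, were taken by symbol from the joint count table, where they are 6 of 12 Ms4a rows among 22859 genes. They were chosen with their responses to immune complexes already known, so those responses are given as levels and fold changes, a description from which no test is read. All 6 passed the filter on low counts, together with 15272 genes in all.

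The libraries came from synovial macrophages of adult mice labelled Fcgr2b-KO, so every group, controls included, carried that label. Fcgr2b encodes the inhibitory Fc receptor for IgG, and synovium is the membrane that lines the joint. IC-treated mice had received immune complexes of ovalbumin and rabbit antibody to ovalbumin through the tail vein 8 h before tissue collection, and control mice are labelled Healthy or Control. Cells were sorted into LYVE1+CX3CR1+ macrophages (labelled Lyve1, gated as MHCII- and Ly6C-), MHCII+CD11c- macrophages (labelled IAIE) and MHCII+CD11c+ macrophages (labelled CD11c). There were 17 libraries in 6 groups, 3 in every group but the IC group of MHCII+CD11c+ cells, where 2 were available. Whether each library came from 1 animal is not given, so p-values measure the spread between these libraries.

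Library totals ranged from 2301913 to 7248939 counts. Fcgr2b itself had 69.3 to 248 CPM (counts scaled to the library total) across the 17 libraries, and gene totals do not show which exons the reads came from. At equal depth 16322 to 17431 genes were detected in the control libraries of LYVE1+CX3CR1+ macrophages and 11547 to 13874 in those after IC. The summed level of 6 macrophage markers (Adgre1, Csf1r, Cd68, Fcgr1, Mertk, C1qa) was 4821 to 7405 CPM in LYVE1+CX3CR1+ and MHCII+CD11c- macrophages, but 1430 to 2236 CPM in control and 2454 to 3113 CPM in IC libraries of MHCII+CD11c+ macrophages. None of the 6 was at or under 3 counts, taken as the floor, in every library of a group. Control replicate 2 of MHCII+CD11c+ macrophages stood apart from the other controls of its group, with 581 CPM for 5 markers of the LYVE1+CX3CR1+ sort (Lyve1, Cx3cr1, Vsig4, Timd4, Folr2) against 83.6 and 57.5 CPM, and results that rest on it are given with and without it.

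In the mm10 genome the 6 genes lie on chromosome 19, with Ms4a7 (11321039 to 11336146) and Ms4a6d (11586604 to 11604849) on the minus strand at the ends of the stretch. Ms4a4a (11375523 to 11392790), Ms4a4c (11404770 to 11427246), Ms4a6c (11469366 to 11482192) and Ms4a6b (11516512 to 11531256) lie between them on the plus strand. The coding sequences of Ms4a6b and Ms4a6c were 85.3% identical, those of Ms4a6b and Ms4a6d 81.3%, those of Ms4a6c and Ms4a6d 79.1% and those of Ms4a4a and Ms4a4c 68.3%. Other pairs were 58.1% to 64.1% identical. This likeness could split or lose reads between copies, and how reads with several alignments were counted is not given. Yet runs of 75 bases were rarely shared, at 0.632% of those in Ms4a6b, 0.408% in Ms4a6d, 3.78% in Ms4a4c and none in Ms4a4a or Ms4a7. Ms4a6c was the exception at 47.7%, mostly with BE692007, an antisense gene that overlaps it. Whether counting used the strand is not given, so reads of Ms4a6c and BE692007 may not have been told apart.

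The RefSeq promoter table of GRCm38.p6, the assembly that mm10 is made from, held windows of 300 bases (250 before and 50 after a start site) for 5 of the 6 genes, with 2 windows for Ms4a7 and none for Ms4a6d. Ms4a6c (chr19:11469118-11469417, plus strand) and Ms4a6b (chr19:11518309-11518608, plus strand) are shown because both windows hold the same blocks, printed in capitals. Ms4a7 (chr19:11336097-11336396, minus strand) is shown as the gene with lower levels after IC in LYVE1+CX3CR1+ macrophages, with the motif ACTTCC in capitals, which is GGAAGT on the other strand.
Ms4a6c: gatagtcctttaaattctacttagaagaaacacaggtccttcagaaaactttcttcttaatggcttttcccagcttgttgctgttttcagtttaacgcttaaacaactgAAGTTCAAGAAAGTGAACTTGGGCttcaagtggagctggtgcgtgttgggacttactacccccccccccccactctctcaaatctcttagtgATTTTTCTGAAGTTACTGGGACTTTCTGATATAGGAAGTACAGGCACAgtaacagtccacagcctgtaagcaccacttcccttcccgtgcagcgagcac
Ms4a6b: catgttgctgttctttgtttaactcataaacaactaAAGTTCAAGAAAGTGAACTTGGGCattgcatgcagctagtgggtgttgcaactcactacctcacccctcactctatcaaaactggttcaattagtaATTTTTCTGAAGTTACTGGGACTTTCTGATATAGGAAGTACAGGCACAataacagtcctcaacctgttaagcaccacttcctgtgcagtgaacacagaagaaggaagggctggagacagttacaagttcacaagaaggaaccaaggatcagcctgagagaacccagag
Ms4a7: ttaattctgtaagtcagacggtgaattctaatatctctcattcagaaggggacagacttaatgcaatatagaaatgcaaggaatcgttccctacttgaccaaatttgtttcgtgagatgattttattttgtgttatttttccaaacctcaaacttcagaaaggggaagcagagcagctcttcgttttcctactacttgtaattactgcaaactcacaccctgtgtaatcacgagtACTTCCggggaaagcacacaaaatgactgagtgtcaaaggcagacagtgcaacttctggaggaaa
Over 234 aligned columns the windows of Ms4a6b and Ms4a6c were 82.5% identical, and they shared 2 exact runs of at least 15 bases, of 24 and 48 bases. The longer run ended 2 bases before the start site of Ms4a6c and 71 bases before that of Ms4a6b. No other pair among the genes other than Ms4a7 shared a run of that length. The motif GGAAGT, read by Ets factors such as PU.1, lay in the longer run and was found on either strand in 4 of the 6 windows (Ms4a4c, Ms4a6b, Ms4a6c and 1 of Ms4a7), against 23.8% of 32851 windows. The motif GAAANNGAA, of the kind read by interferon regulatory factors, lay in the shorter run and was found in 4 of the 6 windows (Ms4a6b, Ms4a6c and both of Ms4a7), against 8.56% of all windows. The motif TGTTCT of the glucocorticoid receptor was in the windows of Ms4a4c, Ms4a6b and 1 of Ms4a7 (19% of all windows), and the AP-1 motif TGANTCA was in 1 window of Ms4a7 (7.81%). The STAT motif TTCNNNGAA (8.30%), the E-box CACGTG (7.15%) and the C/EBP motif TTGCNNAA (10.8%) were in none of the 6. These matches are letters in a window and say nothing of binding.

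The 6 genes together made up 426 to 471 CPM in control libraries of LYVE1+CX3CR1+ macrophages and 694 to 851 CPM after IC. For MHCII+CD11c- cells these were 354 to 424 CPM and 1018 to 1510 CPM. For MHCII+CD11c+ cells they were 94.5 to 187 CPM and 296 to 486 CPM. In each subset every IC library lay above every control library. Which genes made up that level differed between subsets, as the plot of the 6 genes in each library shows.

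**Figure D1:**
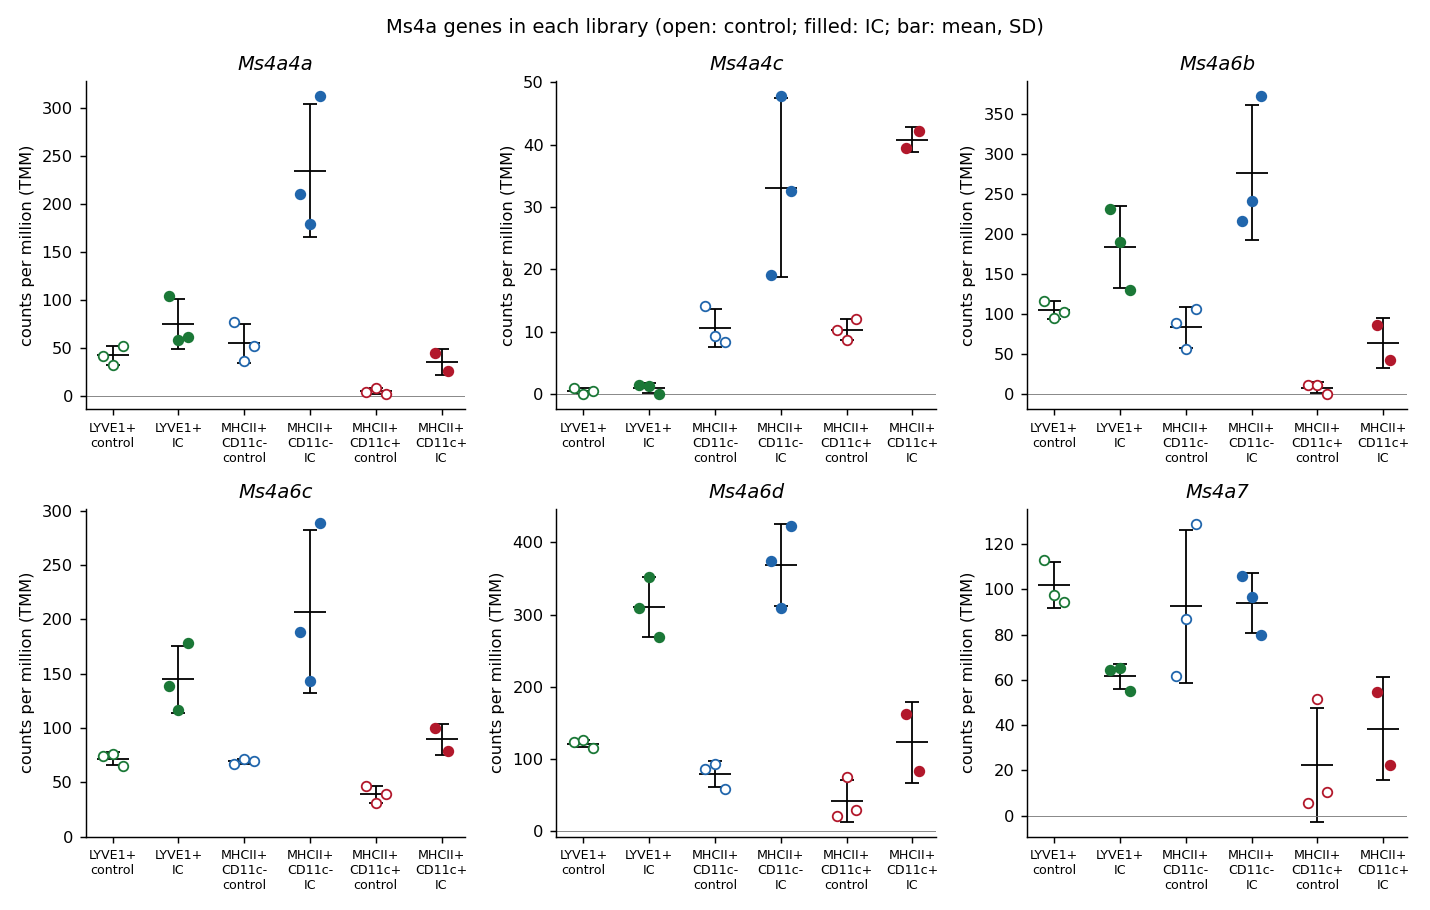
Level of each of the 6 Ms4a genes in CPM (TMM scaling, vertical axis) in the 17 libraries, by sorted subset and treatment, where LYVE1+ stands for LYVE1+CX3CR1+. Points are libraries, open for control and filled for IC, and bars are the group mean with SD (n = 3, or 2 for MHCII+CD11c+ after IC). Ms4a4c is near 0 in all 6 LYVE1+CX3CR1+ libraries, and Ms4a7 is the gene whose IC libraries do not lie above the controls in any subset.

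Compared per kilobase of exon, with exons pooled over the GENCODE M21 transcripts of a gene, the order of the genes was not the same in each subset. These lengths ran from 836 bases for Ms4a4a to 4485 bases for Ms4a6b, and the annotation used for counting is not given. The order depends on these lengths. Before division by length, control LYVE1+CX3CR1+ macrophages had a mean of 42.6 CPM for Ms4a4a and 105 CPM for Ms4a6b. In control LYVE1+CX3CR1+ macrophages Ms4a6d was highest at 70.0 ± 2.77 CPM per kilobase (SD, n = 3), before Ms4a4a at 50.9 ± 12.1, Ms4a6c at 35.0 ± 2.94, Ms4a6b at 23.4 ± 2.44 and Ms4a7 at 22.9 ± 2.28. Ms4a6b and Ms4a7 did not differ there beyond their spread, and Ms4a4c was last at 0.286 ± 0.271 CPM per kilobase. In control MHCII+CD11c- macrophages Ms4a4a (66.1 ± 24.4 CPM per kilobase, n = 3) and Ms4a6d (45.8 ± 10.6) were the upper pair with overlapping spread, Ms4a6c stood at 33.8 ± 1.17, and Ms4a7 (20.8 ± 7.59) and Ms4a6b (18.7 ± 5.73) overlapped above Ms4a4c (6.05 ± 1.74). In control MHCII+CD11c+ macrophages Ms4a6d (24.4 ± 16.8 CPM per kilobase, n = 3) and Ms4a6c (19 ± 3.75) had the highest means, with a wide spread for Ms4a6d, and the means of the other genes lay between 1.76 for Ms4a6b and 6.49 for Ms4a4a. After IC the upper place belonged to Ms4a6d in LYVE1+CX3CR1+ macrophages (179 ± 23.9 CPM per kilobase, n = 3) and in MHCII+CD11c+ macrophages (70.7 ± 32.1, n = 2), and to Ms4a4a in MHCII+CD11c- macrophages (281 ± 82.9, n = 3), where Ms4a6d followed within the spread at 212 ± 32.9.

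After IC, 5 of the 6 genes had a higher group mean in every subset, and Ms4a7 did not. For Ms4a4c in LYVE1+CX3CR1+ macrophages the counts were too few to read a change. With edgeR, 1 of the 6 was called in LYVE1+CX3CR1+ macrophages (against 0.963% of all genes tested), 3 in MHCII+CD11c- macrophages (0.701%) and 2 in MHCII+CD11c+ macrophages (0.216%), all higher after IC, where called means an adjusted p under 0.05. Since the genes were selected on these contrasts, nothing is read from those counts, and calls of single genes in them are not used. The median log2 fold change of the 6 genes was 0.82, 1.68 and 1.75 in that order of subsets, against -0.14, -0.03 and 0.01 over all genes tested. In bulk libraries a change in the share of cells that express a gene and a change in RNA per cell cannot be told apart.

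**Figure D2:**
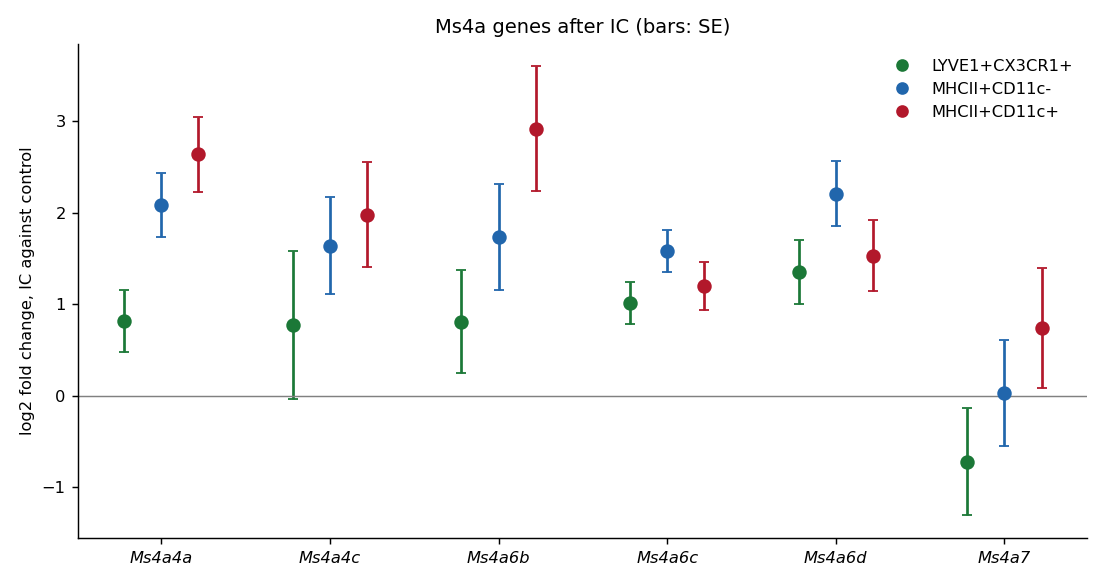
Log2 fold change of each Ms4a gene after IC against control (vertical axis) in the 3 sorted subsets, from the edgeR fit over 17 libraries. Points are estimates and bars are SE. Ms4a4a, Ms4a4c, Ms4a6b, Ms4a6c and Ms4a6d lie above 0 in each subset, and Ms4a7 lies at -0.72, 0.03 and 0.74. The point of Ms4a4c in LYVE1+CX3CR1+ macrophages rests on counts too few to read a change.

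Ms4a6c, one of the Ms4a6 copies, had the smallest SE of the 6 genes in each subset. In LYVE1+CX3CR1+ macrophages it stood at 74.7, 75.7 and 64.7 CPM in control and 139, 117 and 178 CPM after IC, a log2 fold change of 1.01 ± 0.23 (SE). In MHCII+CD11c- macrophages it went from 67.0, 71.7 and 69.2 CPM to 188, 143 and 289 CPM (1.58 ± 0.23), and in MHCII+CD11c+ macrophages from 46.4, 31.0 and 39.7 CPM to 99.8 and 79.3 CPM (1.20 ± 0.26). IC and control libraries did not overlap in any subset. With a library left out the log2 fold change was 0.89 to 1.20 in LYVE1+CX3CR1+ and 1.02 to 1.35 in MHCII+CD11c+ macrophages. The antisense gene BE692007 was also higher in each IC library than in the controls of its subset, by 1.32 ± 0.58, 1.01 ± 0.57 and 1.99 ± 0.69 on the log2 scale, and passed the test in none of the 3 subsets (adjusted p = 0.287, 0.604 and 0.608).

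Ms4a6d, the close relative of Ms4a6c on the opposite strand, was higher in every IC library than in the controls of its subset. It stood at 123, 126 and 116 CPM in control LYVE1+CX3CR1+ macrophages and 309, 352 and 269 CPM after IC (log2 fold change 1.35 ± 0.35), and at 86.6, 93.3 and 58.5 CPM in control MHCII+CD11c- macrophages and 374, 309 and 423 CPM after IC (2.21 ± 0.36). In MHCII+CD11c+ macrophages control replicate 2, at 75.6 CPM, lay close to the lower IC library at 83.4 CPM, while the other controls were at 21.7 and 29.5 CPM and the other IC library at 162 CPM. The log2 fold change there was 1.53 ± 0.39, and 2.27 ± 0.29 without that control.

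Ms4a6b, the third of the Ms4a6 copies, was higher in every IC library than in the controls of its subset. It went from 117, 94.9 and 103 CPM to 232, 190 and 130 CPM in LYVE1+CX3CR1+ macrophages (log2 fold change 0.81 ± 0.56) and from 88.3, 56.2 and 107 CPM to 216, 241 and 373 CPM in MHCII+CD11c- macrophages (1.73 ± 0.58). In MHCII+CD11c+ macrophages it went from 11.9, 11.7 and 0.00 CPM to 85.8 and 42.1 CPM (2.92 ± 0.68). The control library at 0 had 0 counts, which at its depth allows up to 1.13 CPM, while the other controls had 56 and 63 counts. Without that library the log2 fold change was 2.44.

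Ms4a4a, the marker of tissue macrophages, had larger fold changes in the MHCII+ subsets. It stood at 77.0, 36.4 and 52.5 CPM in control MHCII+CD11c- macrophages and 211, 180 and 313 CPM after IC (log2 fold change 2.08 ± 0.35), and at 4.89, 8.73 and 2.65 CPM in control MHCII+CD11c+ macrophages and 45.0 and 26.4 CPM after IC (2.64 ± 0.41). In LYVE1+CX3CR1+ macrophages it went from 42.5, 32.4 and 52.7 CPM to 105, 58.9 and 62.2 CPM (0.82 ± 0.34). The IC libraries lay above the controls in each subset, narrowly in LYVE1+CX3CR1+ macrophages.

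Ms4a4c, the neighbour of Ms4a4a, was the rarest of the 6. In LYVE1+CX3CR1+ macrophages it had 6, 0 and 4 counts in control and 5, 4 and 0 counts after IC, too few to read a change. It went from 14.1, 9.37 and 8.36 CPM to 19.1, 47.8 and 32.5 CPM in MHCII+CD11c- macrophages (log2 fold change 1.64 ± 0.53) and from 10.2, 8.73 and 12.1 CPM to 39.4 and 42.1 CPM in MHCII+CD11c+ macrophages (1.98 ± 0.57). IC libraries lay above the controls in both MHCII+ subsets.

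Ms4a7 was the one of the 6 genes with a lower group mean after IC in any subset. It stood at 113, 97.3 and 94.6 CPM in control LYVE1+CX3CR1+ macrophages and 64.4, 65.1 and 55.2 CPM after IC, lower in each IC library (log2 fold change -0.72 ± 0.59). In MHCII+CD11c- macrophages it was at 61.9, 86.9 and 129 CPM in control and 106, 96.8 and 79.8 CPM after IC, and the log2 fold change of 0.03 ± 0.58 turned to -0.02 with DESeq2 size factors and to -0.05 with library totals. In MHCII+CD11c+ macrophages the controls were at 5.53, 51.5 and 10.6 CPM and the IC libraries at 54.5 and 22.4 CPM (0.74 ± 0.66). The control at 51.5 CPM was replicate 2, and without it the log2 fold change was 2.31, so the value there rests on that library.

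The make-up of the summed counts moved accordingly. Ms4a7 took 21.9% to 24.1% of the counts of the 6 genes in control LYVE1+CX3CR1+ macrophages and 7.56% to 8.31% after IC, while in MHCII+CD11c- cells its share was 15.7% to 30.3% before and 5.28% to 9.51% after IC. The share of Ms4a6d went from 26.0% to 29.5% in control to 36.3% to 44.9% after IC in LYVE1+CX3CR1+ macrophages, and in MHCII+CD11c- cells it was 13.8% to 26.4% in control and 28% to 33.6% after IC. In both subsets the ranges did not overlap for either gene. Within a library the log2 ratio of Ms4a6d to Ms4a7 counts was 0.11 to 0.37 in control and 2.26 to 2.43 after IC in LYVE1+CX3CR1+ macrophages. For MHCII+CD11c- cells it was -1.14 to 0.48 before and 1.67 to 2.40 after IC, and for MHCII+CD11c+ cells 0.55 to 1.95 and 1.57 to 1.89, which overlap. A ratio within a library does not depend on the scaling, and shows unequal change without showing which gene changed.

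**Figure D3:**
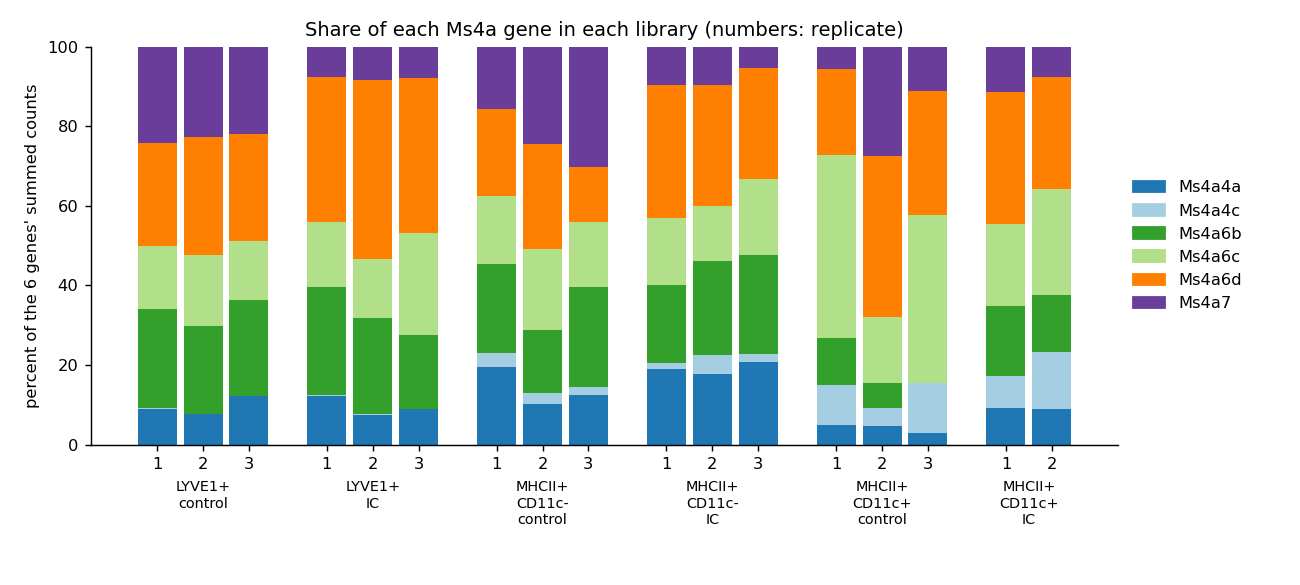
Share of each gene in the summed counts of the 6 Ms4a genes (percent, vertical axis) in each of the 17 libraries, numbered by replicate and grouped by subset and treatment. The Ms4a7 share is 21.9% to 24.1% in control and 7.56% to 8.31% in IC libraries of LYVE1+CX3CR1+ macrophages.

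Set against the macrophage markers, the ranges of the summed 6 genes overlapped between the control subsets, a measure chosen after the values were seen. As a share of the summed CPM of the 6 markers it was 5.83% to 7.98% in control LYVE1+CX3CR1+ cells. The MHCII+CD11c- controls had 6.20% to 7.34%, and those of MHCII+CD11c+ cells 6.57% to 8.36%. After IC it was 10.4% to 13.8%, 16.5% to 27.4% and 12.1% to 15.6%, so that each IC library lay above each control library. Not every single gene overlapped, since control Ms4a4a was 0.607% to 0.712% of the marker level in LYVE1+CX3CR1+ against 0.184% to 0.390% for MHCII+CD11c+ cells, while the Ms4a6c ranges of 0.874% to 1.42% and 1.39% to 3.24% just overlapped.

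**Figure D4:**
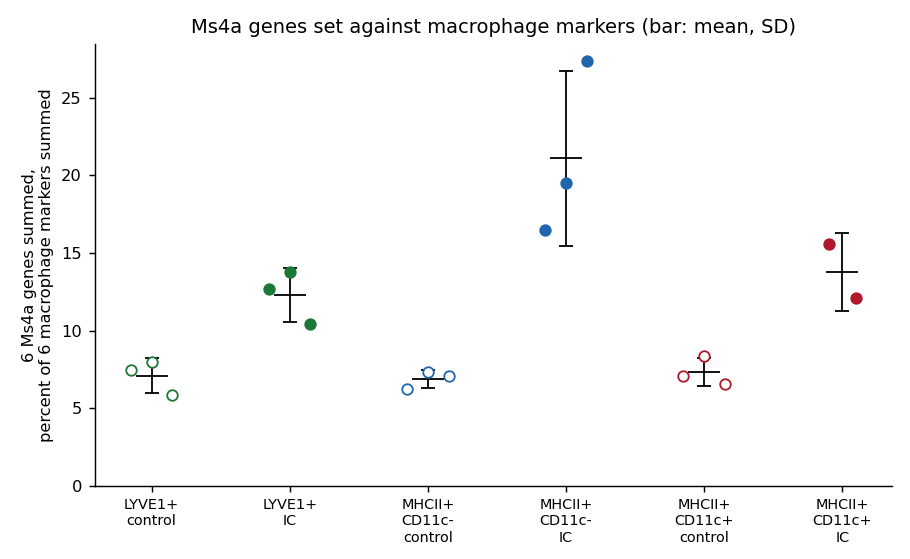
Summed CPM of the 6 Ms4a genes as a percent of the summed CPM of 6 macrophage markers (vertical axis) in each library, by subset and treatment. Points are libraries, open for control and filled for IC, and bars are the mean with SD. All 9 controls lie between 5.83% and 8.36%, and all 8 IC libraries between 10.4% and 27.4%.

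Marker levels of other cells in the same libraries are given beside these values, and their part in these values was not tested. The 5 markers of the LYVE1+CX3CR1+ sort went from 988 to 1721 CPM in control to 1817 to 3293 CPM after IC in MHCII+CD11c- macrophages, with none called, and from 57.5 to 581 CPM to 266 to 559 CPM in MHCII+CD11c+ macrophages, with Timd4 called. The 3 MHCII genes (H2-Eb1, H2-Ab1, H2-Aa) went from 28.5 to 58.6 CPM to 9.76 to 26.0 CPM in LYVE1+CX3CR1+ macrophages, where H2-Eb1 was at or under 3 counts in every IC library. There H2-Eb1 and H2-Aa were called lower after IC. Of 5 mast cell markers in the table, summed levels went from 0.425 to 3.40 CPM to 20.4 to 46.2 CPM in MHCII+CD11c+ macrophages, with Cpa3 and Tpsb2 at the floor in the controls. Of 6 neutrophil markers in those libraries, summed levels went the other way, from 74.3 to 271 CPM in control to 25.1 to 29.5 CPM after IC, where S100a9, Ly6g, Retnlg and Mmp8 were at the floor. The 4 endothelial markers went from 3.03 to 14.5 CPM to 25.3 to 25.7 CPM there, with Emcn at the floor in both. In MHCII+CD11c- macrophages the 6 dendritic cell markers went from 91.4 to 225 CPM to 65.2 to 83.6 CPM, and 3 T and NK cell markers from 22.8 to 32.2 CPM to 5.32 to 17.9 CPM. No gene of these mast cell, neutrophil, endothelial, dendritic or T and NK cell lists was called. The sums of 6 monocyte markers overlapped between control and IC in each subset.

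The response to IC was not shown to differ between subsets for any of the 6 genes. Since the genes were chosen with these responses known, the tests of their differences are not free of that choice. They do not show that the responses were alike. None was called in the contrasts of LYVE1+CX3CR1+ with MHCII+CD11c- macrophages (against 0.0262% of all genes), of LYVE1+CX3CR1+ with MHCII+CD11c+ macrophages (0.0327%) or of MHCII+CD11c+ with MHCII+CD11c- macrophages (0.00%), by edgeR, DESeq2 or limma voom. The counts with an unadjusted edgeR p under 0.05 were 1, 2 and 0. These were Ms4a4a, whose log2 fold change in LYVE1+CX3CR1+ macrophages was lower by -1.26 ± 0.48 than in MHCII+CD11c- macrophages (adjusted p = 0.550) and by -1.82 ± 0.54 than in MHCII+CD11c+ macrophages (adjusted p = 0.295), and Ms4a6b in the latter contrast (-2.11 ± 0.88, adjusted p = 0.578). Each of the 6 genes had a smaller log2 fold change in LYVE1+CX3CR1+ macrophages than in either MHCII+ subset, by a median of -0.86 and -1.34. For Ms4a4c this rests on counts in LYVE1+CX3CR1+ macrophages too few to read a change. The medians over all genes were -0.16 and -0.21, and became -0.03 and -0.04 with DESeq2 size factors. Against MHCII+CD11c+ macrophages the differences of Ms4a6c and Ms4a6d were only -0.19 ± 0.35 and -0.17 ± 0.52, and -0.01 and -0.02 with those factors. Without control replicate 2 of MHCII+CD11c+ macrophages, Ms4a7 passed the test of the difference between LYVE1+CX3CR1+ and MHCII+CD11c+ macrophages (-3.03 ± 0.50, adjusted p = 0.00257).

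Between subsets in control mice, Ms4a4c set LYVE1+CX3CR1+ macrophages apart from both MHCII+ subsets. It was lower in LYVE1+CX3CR1+ macrophages than in MHCII+CD11c- macrophages (log2 fold change -4.19 ± 0.66, adjusted p = 0.000996) and than in MHCII+CD11c+ macrophages (-4.14 ± 0.67, adjusted p = 8.45e-05), and did not differ beyond error between the MHCII+ subsets (-0.05 ± 0.53, adjusted p = 0.978). Its 10 counts over the LYVE1+CX3CR1+ control libraries make the size of that fold uncertain. The other 5 genes had no call between LYVE1+CX3CR1+ and MHCII+CD11c- macrophages, so that 1 of 6 was called there against 1.56% of all genes. Their log2 fold changes ran from -0.37 ± 0.34 for Ms4a4a to 0.61 ± 0.35 for Ms4a6d.

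In MHCII+CD11c+ control macrophages the 5 genes other than Ms4a4c were low. Against LYVE1+CX3CR1+ macrophages all 6 genes were called (against 15.2% of all genes), and 5 were higher in LYVE1+CX3CR1+ macrophages. Ms4a6b differed by a log2 fold change of 3.63 ± 0.65 (adjusted p = 0.00209), Ms4a4a by 2.90 ± 0.39 (adjusted p = 2.39e-05) and Ms4a7 by 2.14 ± 0.62 (adjusted p = 0.0324). Ms4a6d and Ms4a6c differed less, by 1.51 ± 0.36 (adjusted p = 0.00759) and 0.88 ± 0.23 (adjusted p = 0.0110). Against MHCII+CD11c- macrophages, 3 of 6 were called (8.66% of all genes), which were Ms4a6b (-3.30 ± 0.65, adjusted p = 0.00692), Ms4a4a (-3.27 ± 0.40, adjusted p = 1.55e-05) and Ms4a6c (-0.83 ± 0.24, adjusted p = 0.0265), while Ms4a7 (-2.0 ± 0.61, adjusted p = 0.0666) and Ms4a6d (-0.90 ± 0.36, adjusted p = 0.144) were not. All 6 macrophage markers were also called lower in MHCII+CD11c+ macrophages in both contrasts, with medians of 2.12 and -2.03, and their part in these differences was not tested.

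**Figure D5:**
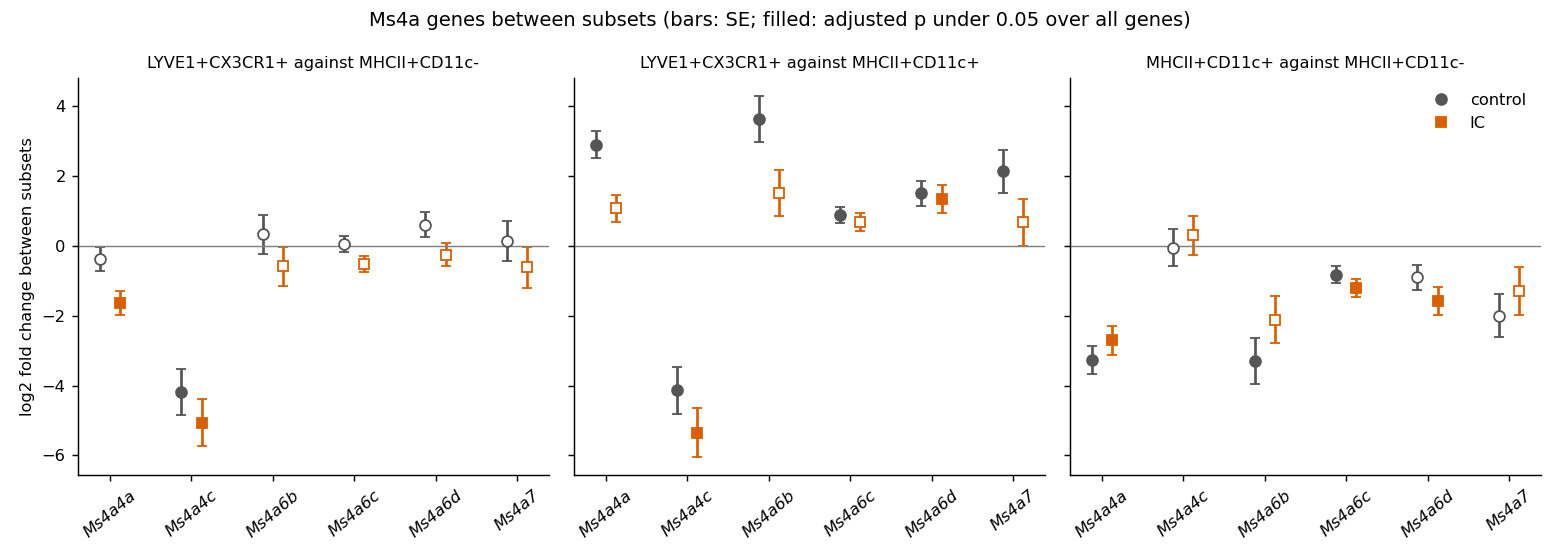
Log2 fold change of each Ms4a gene between sorted subsets (vertical axis), with 1 panel for each pair, in control (circles) and IC libraries (squares), from the edgeR fit over 17 libraries. Bars are SE and filled points have an adjusted p under 0.05 over all genes. Ms4a4c lies at -4.14 to -5.35 in the panels with LYVE1+CX3CR1+ macrophages and near 0 in the panel of the MHCII+ subsets.

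Single libraries decided some of these calls. Without control replicate 2 of MHCII+CD11c+ macrophages, Ms4a7 was 3.70 ± 0.40 higher in LYVE1+CX3CR1+ macrophages on the log2 scale (adjusted p = 3.60e-07), and both Ms4a7 (-3.56 ± 0.40, adjusted p = 1.52e-06) and Ms4a6d (-1.65 ± 0.27, adjusted p = 0.000206) were called lower than in MHCII+CD11c- macrophages, but Ms4a6c was called in neither contrast (adjusted p = 0.0564 and 0.107). The Ms4a7 call against LYVE1+CX3CR1+ macrophages was lost without LYVE1+CX3CR1+ control replicate 1 (adjusted p = 0.0848), 2 (0.0645) or 3 (0.0738), or MHCII+CD11c+ control replicate 3 (0.104). It was also lost with no filter (0.0635), only the compared groups (0.111), sva (0.196) or the replicate block (0.0525), so 8 of 16 alternatives ended it. The Ms4a6c call against LYVE1+CX3CR1+ macrophages was also lost without LYVE1+CX3CR1+ control replicate 1 (adjusted p = 0.0567). The Ms4a6c call between the MHCII+ subsets was also lost without MHCII+CD11c+ control replicate 3 (adjusted p = 0.0715) or MHCII+CD11c- control replicate 1 (0.0833), 2 (0.0564) or 3 (0.0776), and with voom (0.0791), only the compared groups (0.0669) or sva (0.0618). The Ms4a6b call between them was lost with only the compared groups (adjusted p = 0.0805).

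After IC the subsets differed in Ms4a4a and again in Ms4a4c. LYVE1+CX3CR1+ macrophages had less Ms4a4a than MHCII+CD11c- macrophages (log2 fold change -1.63 ± 0.34, adjusted p = 0.00645) and less Ms4a4c (-5.06 ± 0.68, adjusted p = 5.74e-05), 2 of 6 against 5.54% of all genes. Against MHCII+CD11c+ macrophages they had less Ms4a4c (-5.35 ± 0.70, adjusted p = 1.40e-05) and more Ms4a6d (1.34 ± 0.40, adjusted p = 0.0412), 2 of 6 against 11.9%. MHCII+CD11c+ macrophages had less Ms4a4a (-2.71 ± 0.42, adjusted p = 0.000525), Ms4a6c (-1.21 ± 0.26, adjusted p = 0.00759) and Ms4a6d (-1.58 ± 0.41, adjusted p = 0.0356) than MHCII+CD11c- macrophages, 3 of 6 against 4.03%. The Ms4a6d call against LYVE1+CX3CR1+ macrophages was lost without LYVE1+CX3CR1+ IC replicate 1 (adjusted p = 0.0608), 2 (0.0865) or 3 (0.0639), or MHCII+CD11c+ IC replicate 2 (0.386). Between the MHCII+ subsets the Ms4a6d call was lost without MHCII+CD11c+ IC replicate 2 (adjusted p = 0.565) or MHCII+CD11c- IC replicate 1 (0.0802), 2 (0.0525) or 3 (0.105), and the Ms4a6c call without the first of these (0.273) or the last (0.0693). With no filter and with the replicate block the Ms4a6d calls were also lost, at adjusted p = 0.0927 and 0.0567 against LYVE1+CX3CR1+ macrophages and 0.103 and 0.0552 between the MHCII+ subsets.

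Of the other Ms4a rows, Ms4a1, Ms4a4b, Ms4a8a and Ms4a14 had over 3 counts in every library of at least 1 group, Ms4a4b with at most 17 counts in a library. Ms4a14, next to Ms4a7 on the minus strand, was at 39.6 to 47.7 CPM in control LYVE1+CX3CR1+ macrophages and 14.9 to 29.0 CPM after IC (log2 fold change -0.93 ± 0.44, adjusted p = 0.339). Its control level in MHCII+CD11c+ cells was below that of LYVE1+CX3CR1+ cells (LYVE1+CX3CR1+ higher by 2.84 ± 0.48, adjusted p = 0.000140) and below that of MHCII+CD11c- cells (-2.39 ± 0.48, adjusted p = 0.00177). Ms4a8a was at 12.9 to 32.8 CPM in control MHCII+CD11c- and 6.14 to 8.93 CPM in control LYVE1+CX3CR1+ macrophages, and after IC was lower in LYVE1+CX3CR1+ macrophages (-2.97 ± 0.67, adjusted p = 0.00987). The B cell gene Ms4a1 had 2.12 to 10.4 CPM in control MHCII+CD11c- macrophages, where 5 other B cell markers summed to 13.3 to 41.4 CPM, and 0.00 to 2.47 CPM after IC, where those summed to 3.33 to 17.9 CPM. Tmem176a and Tmem176b, relatives of the family on another chromosome, had lower IC levels in LYVE1+CX3CR1+ cells, compared with MHCII+CD11c- cells (-1.60 ± 0.36, adjusted p = 0.0135, and -1.01 ± 0.27, adjusted p = 0.0344). In control the same differences were -1.65 ± 0.36 (adjusted p = 0.0232) and -0.91 ± 0.27 (adjusted p = 0.123). Both were also lower after IC than in MHCII+CD11c+ cells (-1.92 ± 0.39, adjusted p = 0.00321, and -1.01 ± 0.30, adjusted p = 0.0313). Against those cells the control differences were -1.88 ± 0.36 (adjusted p = 0.00121) and -0.76 ± 0.27 (adjusted p = 0.0666). None of the 6 tested of these 8 other family rows was called after IC in any subset, with log2 medians of -0.73 (LYVE1+CX3CR1+), -0.11 (MHCII+CD11c-) and -0.01 (MHCII+CD11c+). Of all genes 0.963%, 0.701% and 0.216% were called in that order, so no call among 6 is near the share of all genes.

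Genes next to the cluster had no call after IC. This held for 13 tested neighbours, inside and on both sides of the cluster (BE692007 among them), with log2 medians of 0.01 (LYVE1+CX3CR1+), 0.02 (MHCII+CD11c-) and 0.22 (MHCII+CD11c+). Of all genes 0.963%, 0.701% and 0.216% were called in that order, so no call among 13 is near the share of all genes. In control, Mpeg1, which encodes the pore-forming protein perforin-2 of macrophages, was lowest in LYVE1+CX3CR1+ cells at 63.8 to 98.0 CPM, with 202 to 344 CPM for MHCII+CD11c- cells (adjusted p = 0.0117) and 392 to 1020 CPM for MHCII+CD11c+ cells (adjusted p = 7.60e-06). Patl1 (0.95 ± 0.22, adjusted p = 0.00409) and BE692007 (2.33 ± 0.64, adjusted p = 0.0139) had higher control levels in LYVE1+CX3CR1+ cells, compared with MHCII+CD11c+ cells. AW112010 after IC had less RNA in LYVE1+CX3CR1+ cells, compared with MHCII+CD11c- cells (-5.11 ± 1.21, adjusted p = 0.0117). Its levels there were 0.00 to 0.629 CPM, under the floor in each LYVE1+CX3CR1+ library, against 2.06 to 14.2 CPM, so the size of that fold is uncertain.

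Of 6 partners and signalling genes of the receptors with which MS4A4A is found or that signal beside it (Clec7a, Syk, Card9, Trem2, Tyrobp, Fcer1g), 1 was called after IC. Of all genes 0.963% (LYVE1+CX3CR1+), 0.701% (MHCII+CD11c-) and 0.216% (MHCII+CD11c+) were called. The log2 medians of the 6 in that order were 0.45, -0.08 and 0.02. Fcer1g, the signalling chain shared by activating Fc receptors, was called in MHCII+CD11c- macrophages. It rose there from 197 to 260 CPM in control to 398 to 495 CPM after IC (log2 fold change 0.99 ± 0.18, adjusted p = 0.00612). Without a call it was also higher in each IC library of the other subsets. It went from 254 to 332 CPM to 372 to 469 CPM in LYVE1+CX3CR1+ macrophages. In MHCII+CD11c+ macrophages it went from 172 to 246 CPM to 273 to 320 CPM. Clec7a, which encodes Dectin-1, was at 54.8 to 412 CPM in control and 60.3 to 130 CPM after IC in those cells, with wide overlap. Trem2 was at 144 to 200 CPM in control and 238 to 318 CPM after IC in LYVE1+CX3CR1+ macrophages without a call. After IC, Card9, an adaptor downstream of Dectin-1 and Syk, was higher in LYVE1+CX3CR1+ macrophages than in MHCII+CD11c- (0.95 ± 0.24, adjusted p = 0.0171) and MHCII+CD11c+ macrophages (1.06 ± 0.27, adjusted p = 0.0108), and the kinase gene Syk was lower than in MHCII+CD11c+ macrophages (-0.89 ± 0.19, adjusted p = 0.00284).

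Genes with the profile most like each of the 6 were taken as the 5 of 15271 with the smallest root mean square difference of centred log2 CPM over the 17 libraries, which share treatment, subset and depth. Closest to Ms4a6c were Tsc22d3 (0.291), a glucocorticoid-induced leucine zipper gene, Tmem104 (0.355), Man2a1 (0.378) and the heat shock genes Hspa1b (0.381) and Hspa1a (0.384), which are near-identical copies of each other. Closest to Ms4a6d were Bcl2l1 (0.519), which encodes the survival protein BCL-XL, the clock genes Per2 (0.561) and Cry2 (0.578), and Tsc22d3 (0.593) and Man2a1 (0.594). So Tsc22d3 and Man2a1 stood in both lists. For Ms4a4a these were BE692007 (0.70), Gpt2 (0.713), Thbd (0.729), Ninj1 (0.731) and the complement receptor gene C5ar1 (0.734), and for Ms4a6b Tspan4 (0.786), Gprc5b (0.790), the activating receptor gene Fcgr1 (0.809), Hyal2 (0.85) and BE692007 (0.901). Ms4a4c had the interferon-inducible genes Ifi205 (0.818), Mx1 (0.965) and Gbp4 (0.972), with Emb (0.969) and Fgl2 (0.988). Ms4a7 had Dip2c (0.437), Adap2 (0.454), Pf4 (0.455), its neighbour Ms4a14 (0.466) and the complement gene C1qa (0.468).

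Distances of Ms4a6b rested on 1 library. Over all 17 libraries the nearest pair among the 6 was Ms4a6c and Ms4a6d, with a root mean square difference of 0.649 on the same scale. Ms4a6c ranked 13 among the genes nearest to Ms4a6d, but Ms4a6d ranked 238 among those nearest to Ms4a6c. Ms4a4a and Ms4a6b differed by 0.981, and Ms4a6b and Ms4a6c, the closest in sequence, by 1.72. In MHCII+CD11c+ control replicate 3 Ms4a6b had 0 counts, and without that library, a choice made after the values were seen, Ms4a4a and Ms4a6b became the nearest pair at 0.483. Ms4a6b was then the gene nearest to Ms4a4a of all, and Ms4a4a ranked 2 for Ms4a6b, behind Ninj1 (0.478). Ms4a6b and Ms4a6c then differed by 0.793, and Ms4a6c and Ms4a6d by 0.620. Of the 5 genes named as nearest to Ms4a6b, BE692007 was the one still among its nearest 5 (0.526). Ms4a4c stood farthest from the others in both cases, at 2.33 to 3.37 with all libraries and 2.34 to 2.74 without that one, and its closest copy in sequence, Ms4a4a, was at 2.71 and 2.51.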

How the data were processed

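Total RNA (5 ng per library) of sorted synovial macrophages was made into stranded libraries with a low-input kit and sequenced in pairs. Per the labels and the methods, the authors used Trim Galore for trimming, HISAT2 for alignment to mm10 and featureCounts for gene counts. Tool versions, the annotation, and whether counting used strand or multiply aligned reads, are not given in the sources used here. The deposited values are raw counts for each gene symbol, not normalized. All 17 libraries were identical in the joint table and the single tables, and 1 column of the joint table that matched no sample was not used. Replicates differed by more than sampling noise (chi-square per degree of freedom of at least 6.77).

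Groups came from the labels. Counts were filtered with filterByExpr (minimum count 10), scaled by TMM and tested with edgeR 4.0.16 (R 4.3.3), with a robust quasi-likelihood fit of 6 group means over 17 libraries. p-values were adjusted over 15272 genes with the Benjamini-Hochberg procedure (threshold 0.05). SE were taken from the quasi-likelihood F statistic. Counting error was read as a floor of 3 counts per library (0.419 to 1.24 CPM), which covers counting error only. Likeness used log2 CPM with a prior count of 2. Alternatives were DESeq2 1.42.0, limma 3.58.1 voom with quality weights, sva 3.50.0, DESeq2 size factors, no filter, only the groups compared, libraries drawn down to 2301913 counts, the replicate number as a block, leaving out each library and, chosen after seeing the data, library totals with no scaling and, for likeness, leaving out the library in which Ms4a6b had 0 counts. The edgeR step was run on simulated data for the IC contrast of LYVE1+CX3CR1+ macrophages only, with changes planted in well-counted genes. That run does not cover genes near the floor or the group of 2 libraries, and no result here rests on it. Gene positions came from GENCODE M21, which matched 97.4% of symbols, and alignments were made with Biopython 1.88. The genes and lists were chosen with earlier results of these data known. Named are the 6 genes, other family rows called or over 3 counts in every library of a group, receptor partners and neighbours of the cluster called in a contrast, and the 5 genes nearest to each of the 6. Some genes (Clec7a, Trem2) were named after their values were seen.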

Additional observations from a re-analysis of the deposited data

How the results depend on the processing

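Counts are of the 6 Ms4a genes called, each with the share of all genes called under that setting. Those after IC, and those of differences in IC response, rest on responses known when the genes were chosen. They show how the settings matter, and nothing else is read from them. After IC, LYVE1+CX3CR1+ macrophages had 2 with DESeq2 (2.91%), only the compared groups (0.558%), libraries drawn down to 2301913 counts (0.877%) or sva (10.2%), against 1 as reported (0.963%), and 0 to 1 with a library left out. MHCII+CD11c- macrophages had 5 with sva (1.67%), against 3 (0.701%). MHCII+CD11c+ macrophages had 1 with DESeq2 size factors (0.151%), drawn-down libraries (0.214%) or library totals (0.151%), 5 with DESeq2 (0.654%) and 0 with only the compared groups (0.00%), against 2 (0.216%), and 0 to 3 with a library left out. In IC libraries, LYVE1+CX3CR1+ against MHCII+CD11c+ macrophages gave 4 with DESeq2 (16.5%), voom (14.3%) or sva (26.5%) and 1 with no filter (7.10%), against 2 (11.9%), and 1 to 2 with a library left out. The MHCII+ subsets gave 5 with voom (11.7%) or only the compared groups (8.24%), against 3 (4.03%), and 1 to 3 with a library left out. In control, they gave 1 with only the compared groups (7.72%), against 3 (8.66%). The difference in IC response between LYVE1+CX3CR1+ and MHCII+CD11c+ macrophages had 0 to 1 with a library left out.

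Directions turned only for uncalled log2 values. Ms4a7 after IC in MHCII+CD11c- macrophages was -0.02 with DESeq2 size factors, -0.03 with DESeq2, -0.05 with library totals and -0.19 to 0.34 with a library left out. Ms4a6c between LYVE1+CX3CR1+ and MHCII+CD11c- controls was 0.00 with DESeq2 or its size factors, and Ms4a7 there was -0.08 to 0.42 with a library left out. With a library left out, Ms4a4c between MHCII+ controls was -0.17 to 0.25, and Ms4a7 after IC in MHCII+CD11c+ macrophages -0.04 to 2.31. The difference in IC response of LYVE1+CX3CR1+ from MHCII+CD11c+ macrophages was 0.03 with sva and -0.92 to 0.42 with a library left out for Ms4a6d, and -0.34 to 0.03 for Ms4a6c. That between the MHCII+ subsets was -1.24 to 0.07 for Ms4a6d and -0.07 to 2.28 for Ms4a7. The cause was not tested.

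Between subsets of the same treatment, libraries with the same replicate number had correlations of 0.00129 to 0.286, each above 0. Between control and IC libraries of a subset, which come from different mice, these were -0.153 to 0.0817. In no pair of groups was each over 0.1, and the numbers were not taken as pairs in the main fit. Whether subsets with the same number came from the same mice is not given, so a shared source remains possible. With the replicate number as a block, LYVE1+CX3CR1+ against MHCII+CD11c+ macrophages after IC had 1 gene called (11.3% of all genes). With it as a block within each treatment, that contrast had 2 (11.5%). Every contrast between subsets within a treatment then had as many of the genes called as reported. Of the single-gene values, 455 kept their direction and call with a library left out, 35 lost and 6 gained a call and 14 turned, and 644, 19, 32 and 6 did so under the other alternatives. Those values include the IC contrasts on which the genes were selected. Depth limits Ms4a4c most, with at most 6 counts in any LYVE1+CX3CR1+ library.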
